A study of Mus musculus with 4 samples.

Results

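The comparison of the STING agonist with no treatment was described in tumour-infiltrating leukocytes, across genes, in all cells and in 3 cell classes. Its members were all barcodes with 300 to 5000 detected genes and at most 6% of unique molecular identifiers (UMIs) from mitochondrial genes, which left 7776 barcodes of the untreated library and 14326 of the STING agonist library, or 22102 of the 51841 barcodes kept over the 4 libraries of the series. T barcodes had 2 or more of Cd3d, Cd3e and Cd3g detected. Neutrophil barcodes had 2 or more of Csf3r, Cxcr2, G0s2 and Hdc and no Csf1r. Macrophage/monocyte barcodes had Csf1r and neither Cd3e nor Cxcr2.

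KPC cells, a mouse pancreatic cancer line, were grown under the skin of C57BL/6 mice. One group was left untreated, and one received ADU-S100, a STING agonist related to the natural messenger cGAMP, as a single injection into the tumour. Another group received an antibody that activates the lymphotoxin-β receptor (LTβR), and the last received both agents. Per the study's methods the tumours of a group were pooled before live CD45+ cells were sorted, so each group was 1 library of 1 pool, and only leukocytes of an injected subcutaneous tumour were seen. Tumours were taken on the day of their resection, many days after the injection of the STING agonist, so early responses were not seen. The LTβR agonist and combination libraries serve here only to show where the untreated and STING agonist libraries lie among the 4, and to give the same contrast a second time in libraries other than the first pair.

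STING is an adaptor protein of the endoplasmic reticulum that binds cyclic dinucleotides such as cGAMP, which the sensor cGAS makes when it meets DNA in the cytosol. Bound STING recruits the kinase TBK1, which activates IRF3 and with it the type I interferon genes, and it also activates NF-kB, which drives inflammatory cytokines and its own feedback inhibitors. In tumours, myeloid and endothelial cells are known as the main responders, and the chemokines CXCL1, CXCL2 and CXCL3 are known to draw neutrophils through CXCR2.

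Levels are given as counts per 1e+06 UMIs of the class (CPM), from UMIs summed over its barcodes, and 4 values in a row are in the order untreated, STING agonist, LTβR agonist and both agonists. A pair of CPM values or of detection rates is untreated first, and a share given against another is that of the STING agonist library against the untreated library, with background shares in that same order. A log2 ratio is of the STING agonist library over the untreated library unless said otherwise. The ranges in parentheses are 95% intervals, exact except for ratios of shares, whose intervals are log-normal, and they cover counting error only. With 1 library in each group there was no test between groups, no p-value and no replicate check, and a difference could belong to the pool or the library as well as to the treatment. A gene was called higher or lower when its CPM differed at least 2-fold and the interval left out 0, among genes for which both libraries together held 200 UMIs or more. Kept libraries held 46791215 to 74215666 UMIs. The untreated and STING agonist libraries shared 39 barcode sequences, 35 of them kept. In levels summed over all cells, fewer cells of a type and less RNA per cell cannot be told apart.

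Each class held RNA of the markers its name calls for, and also RNA of the markers of other classes. Over the list of 9 further T cell markers (Trac, Lck and others, none used by the rule) the summed level was 3519 and 3684 CPM in T barcodes, 173 and 78.2 CPM in neutrophil barcodes and 30.8 and 23 CPM in macrophage/monocyte barcodes of the untreated and STING agonist libraries. The 8 further neutrophil markers, S100a8 and S100a9 among them, summed to 45514 and 60039.7 CPM in neutrophil barcodes and to 633 and 2110 CPM in T barcodes. The 10 macrophage and monocyte markers, Lyz2 and C1qa among them, summed to 16981 and 14096 CPM in the macrophage/monocyte class. They summed to 2298 and 2215 CPM in T barcodes and to 1283 and 1065 CPM in neutrophil barcodes. S100a9, which neutrophils hold in abundance and monocytes also make, was present outside the neutrophil class as well, at a higher level in the STING agonist library, and its source was not tested. It stood at 19.2 and 658 CPM in T barcodes and at 34.4 and 409.7 CPM in macrophage/monocyte barcodes. These were 0.0898 and 2.12% of its level in the neutrophil class for T barcodes, and 0.161 and 1.32% for macrophage/monocyte barcodes, in the untreated and STING agonist libraries. Basophil markers were part of the small untreated neutrophil class: the 5 mast cell and basophil genes summed to 190.4 CPM there against 23.2 CPM after the STING agonist, and Hdc, which the rule uses, is also made by those cells.

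The leukocyte mix of the STING agonist library held more neutrophil barcodes and fewer T barcodes than that of the untreated library. Neutrophil barcodes were 404 of 7776 (5.20%, 4.71 to 5.71%) in the untreated library and 4397 of 14326 (30.7%, 29.9 to 31.5%) after the STING agonist, a ratio of 5.91 (5.36 to 6.52). T barcodes were 1093 (14.1%, 13.3 to 14.8%) and 523 (3.65%, 3.35 to 3.97%), a ratio of 0.260 (0.235 to 0.287). Macrophage/monocyte barcodes were 3620 (46.6%, 45.4 to 47.7%) and 5337 (37.3%, 36.5 to 38.1%), a ratio of 0.800 (0.775 to 0.826). The direction for macrophage/monocyte barcodes depended on the denominator. Among barcodes that were not neutrophil barcodes the ratio was 1.09 (1.06 to 1.13), while that of T barcodes was still 0.336 (0.304 to 0.373). In the LTβR agonist and combination libraries the neutrophil shares were 6.47 and 8.06%, the T shares 11.6 and 6.48% and the macrophage/monocyte shares 48.7 and 44.9%. The ratio of the combination to the LTβR agonist library was thus 1.25 (1.15 to 1.35) for neutrophils, 0.558 (0.518 to 0.601) for T barcodes and 0.921 (0.899 to 0.943) for macrophage/monocyte barcodes. Over all kept barcodes each ratio lay on the same side of 1 as without the antibody and nearer to 1. Among barcodes that were not neutrophil barcodes the ratio of T barcodes was 0.566 (0.525 to 0.610) here and that of macrophage/monocyte barcodes 0.937 (0.915 to 0.959), on the other side of 1 from the 1.09 without the antibody. Barcodes of no class made up 34.3 and 28.6% of the untreated and STING agonist libraries.

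**Figure D1:**
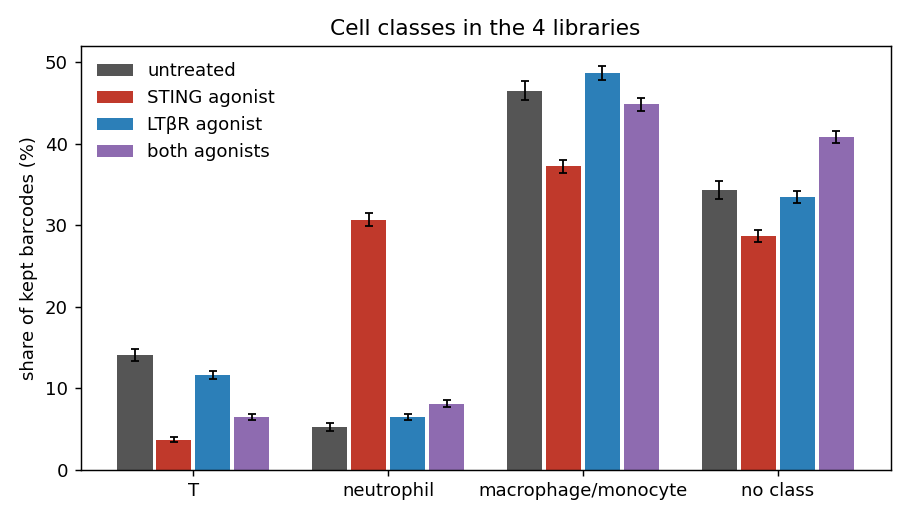
Share of kept barcodes (%) in each class, 1 bar per library, with exact 95% intervals for counting error. The neutrophil bar of the STING agonist library stands at 30.7% and the other 3 libraries lie between 5.20 and 8.06%.

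The typical gene made up a slightly smaller part of the UMIs in the STING agonist library. CPM is a part of a total, so this is not a measure of its RNA per cell. The median log2 ratio over all genes compared was -0.38 in all cells, -0.07 in T barcodes, -0.26 in neutrophil barcodes and -0.20 in macrophage/monocyte barcodes, and each list below is read against the median of its class. In macrophage/monocyte barcodes 264 of 10566 genes were higher (2.5%) and 232 lower (2.2%). With the ratios centred on the median gene the counts were 385 and 128. Before centring, 102 of the 264 higher and 61 of the 232 lower genes had less than 0.5 times the level of the other barcodes of the library. The rule for named genes left 118 of the 264 and 156 of the 232. In neutrophil barcodes 125 of 4592 genes were higher (2.72%) and 283 lower (6.16%), which became 225 and 93 after centring. In T barcodes 80 of 6499 genes were higher (1.23%) and 57 lower (0.877%), and 96 and 43 after centring. The same contrast on top of the LTβR agonist, combination over LTβR agonist, put fewer genes past 2-fold, with 0.505 and 0.383% higher and lower in macrophage/monocyte barcodes, 0.779 and 0.574% in neutrophil barcodes, 0.48 and 0.325% in T barcodes and 0.724 and 0.853% in all cells. The combination library was shallower, with a median of 2235 UMIs per kept barcode against 3235 in the STING agonist library. Across genes the log2 ratios of both contrasts were nearly unrelated, with Pearson r of -0.01 over 10419 genes in macrophage/monocyte barcodes, 0.08 over 2427 in neutrophil barcodes and -0.08 over 6436 in T barcodes. Genes are not independent replicates, and this is a description of 4 libraries. One list held 18 heat-shock and immediate early genes that cell isolation is known to induce. In all cells 4 of the 18 were higher (Hspa1a, Hspa1b, Egr1 and Ier3), against 4.45% of all genes, and 14 were above 0, with a median of 0.55. In T barcodes 2 of 16 were higher (Fosb and Ier3) and 12 were above 0, with a median of 0.53. In macrophage/monocyte barcodes 1 of 18 was higher (Ier3) and 15 were above 0, with a median of 0.33, and in neutrophil barcodes 2 of 16 were higher (Hspa1a and Hspa1b) and 8 were above 0, with a median of -0.00. The part of these genes in the results below was not tested.

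Macrophage/monocyte barcodes of the STING agonist library carried more RNA for inflammatory cytokines, for feedback inhibitors of NF-kB and for CXCR2 ligands. Of 23 genes in the list of NF-kB targets all 23 had a log2 ratio above 0, 13 were higher and none was lower, against 2.5% of all genes higher. The median of the list was 1.31 against -0.20 over all genes. In the combination over the LTβR agonist the median of the same genes was -0.03, with 1 gene higher (Il12b, with over 20% of its UMIs in 1 barcode). The list of neutrophil granule genes was higher in this class too. Of its 12 genes compared 7 were higher, none was lower and 9 were above 0, with a median of 1.64. The part of neutrophil RNA in these values was not tested. 

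Tnf, the gene of tumour necrosis factor, stood at 60.2, 231, 74.5 and 64.0 CPM. The STING agonist library was alone in its high level, and the other 3 lay close together. The log2 ratio was 1.94 (1.87 to 2.02), a 3.84-fold difference. After thinning every barcode to 1000 UMIs, Tnf was detected in 13.4% (12.5 to 14.4%) of macrophage/monocyte barcodes against 4.61% (3.95 to 5.35%) in the untreated library. The shares were 3.85 and 1.39% of T barcodes and 19.9 and 19.4% of neutrophil barcodes. For this gene the other classes are not a measure of free RNA alone. Without thinning the shares were 36.5 and 18.8%. Il10, an anti-inflammatory cytokine, had the same shape, with 17.3, 52, 19.3 and 18.8 CPM and a log2 ratio of 1.59 (1.45 to 1.73). Il6, a cytokine of the acute phase, stood at 19.3, 98.2, 75.1 and 52.9 CPM and its log2 ratio was 2.35 (2.22 to 2.48). The untreated library was the lowest and the STING agonist library the highest, with the other two between. Il1a stood at 221, 737, 363 and 281 CPM and Il1b, the other interleukin-1 gene, at 2959, 7325, 4918 and 4868 CPM. Their log2 ratios were 1.74 (1.70 to 1.78) and 1.31 (1.30 to 1.32). Both were highest after the STING agonist alone and lowest without treatment. Ptgs2, which encodes the prostaglandin synthase COX-2, was at 377, 1263, 689 and 652 CPM, with a log2 ratio of 1.74 (1.71 to 1.77). Il23a, the p19 chain of interleukin-23, was at 2.36, 41.5, 7.60 and 7.71 CPM, with less than 0.5 times the level of the other barcodes of the library, as Nfkbia, Acod1, Cxcl2, Cxcl3 and Csf3 below also had.

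Inhibitors that NF-kB is known to induce were higher too. Nfkbia, which encodes IκBα, stood at 572, 1698, 901 and 909.7 CPM, and its log2 ratio was 1.57 (1.54 to 1.59). Tnfaip3, the deubiquitinase A20, stood at 289, 633, 376 and 413 CPM, with 1.13 (1.09 to 1.16). Il1rn, the interleukin-1 receptor antagonist, stood at 363, 927, 661 and 543 CPM, with 1.35 (1.32 to 1.38). The inflammasome sensor Nlrp3 had a log2 ratio of 1.33 (1.30 to 1.37) and Acod1, the itaconate synthase, of 1.39 (1.35 to 1.44). In all 5 genes the STING agonist library was the highest of the 4 and the untreated library the lowest. Among the 10 members that were not called, Nfkbiz, Nfkbie, Osm, Tnfaip2, Csf1 and Sod2 had log2 ratios of 0.75 to 0.96, and Icam1, Cd40, Bcl3 and Il12b of 0.08 to 0.18.

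The ligands of CXCR2 were among the largest differences. Cxcl2 stood at 1658, 6896, 2848 and 3075 CPM, with a log2 ratio of 2.06 (2.04 to 2.07). Cxcl3 stood at 115, 571, 165 and 189.7 CPM, with 2.31 (2.26 to 2.37). Cxcl1 was rare, at 2.43, 33.4, 8.10 and 6.94 CPM and 3.77 (3.44 to 4.15), and over 20% of its UMIs in 1 library came from 1 barcode. Csf3, which encodes the granulocyte growth factor G-CSF, was at 0.342, 7.77, 1.96 and 1.41 CPM, also with over 20% in 1 barcode. Of the 12 genes compared in the list of neutrophil recruitment 5 were higher, against 2.5% of all genes, the fifth being the formyl peptide receptor Fpr1 (1.07), and all 12 were above 0, with a median of 0.94. Neutrophils make many of the same transcripts: in the neutrophil class of the STING agonist library Cxcl2 stood at 43962 CPM, Il1b at 22938 CPM and Tnf at 451 CPM. If every S100a9 UMI in macrophage/monocyte barcodes had come with the RNA of a neutrophil, that RNA would have brought 579 of the 6896 CPM of Cxcl2 (8.40%), 60.5 of the 571 CPM of Cxcl3 (10.6%), 302 of the 7325 CPM of Il1b (4.13%) and 5.94 of the 231 CPM of Tnf (2.57%). For Il6, Areg, Inhba, Lif, Met and Il10 the amount was under 1% of the level. Without a UMI of S100a8 or S100a9 were 3861 macrophage/monocyte barcodes of the STING agonist library and 3440 of the untreated library. Over these, 189 of 10239 genes were higher (1.85%). The 13 NF-kB targets called above were all past 2-fold there, with a median of 1.60. They were chosen by their values in the whole class, so this is not the median of the list, and the source of the RNA was not tested. There 4 of the 5 genes of neutrophil recruitment were past 2-fold, and Fpr1 was at 0.75.

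The promoters of several of these genes are shown because the genes moved together and NF-kB is the known regulator of the list. The sequences are from RefSeq (GRCm38.p6) and run from 250 bases before to 50 bases after the start site. The NF-kB motif was searched on both strands, with any base at the fifth position, and it is in capitals where it occurs. None of the copies shown overlapped another of the motifs searched. It was found in 126 of 27025 genes of the table (0.466%), in 3 of the 17 NF-kB targets that the table holds (Csf1, Il6 and Nfkbia) and in 3 of the 12 genes of neutrophil recruitment that it holds (Cxcl1, Cxcl2 and Cxcl3).
Cxcl1, chr5:90890995-90891294, plus strand: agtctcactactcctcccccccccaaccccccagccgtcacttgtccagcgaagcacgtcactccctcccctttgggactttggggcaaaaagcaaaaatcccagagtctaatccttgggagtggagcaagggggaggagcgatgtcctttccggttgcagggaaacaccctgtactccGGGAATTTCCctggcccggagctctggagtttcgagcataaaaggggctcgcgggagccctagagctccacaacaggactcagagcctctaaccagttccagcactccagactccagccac
Cxcl2, chr5:90903649-90903948, plus strand: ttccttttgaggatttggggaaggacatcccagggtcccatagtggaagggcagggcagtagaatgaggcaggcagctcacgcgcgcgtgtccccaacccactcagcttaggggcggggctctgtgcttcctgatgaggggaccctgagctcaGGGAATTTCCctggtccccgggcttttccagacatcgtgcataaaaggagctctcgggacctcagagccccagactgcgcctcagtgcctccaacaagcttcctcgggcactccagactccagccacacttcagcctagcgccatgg
Cxcl3, chr5:90785851-90786150, plus strand: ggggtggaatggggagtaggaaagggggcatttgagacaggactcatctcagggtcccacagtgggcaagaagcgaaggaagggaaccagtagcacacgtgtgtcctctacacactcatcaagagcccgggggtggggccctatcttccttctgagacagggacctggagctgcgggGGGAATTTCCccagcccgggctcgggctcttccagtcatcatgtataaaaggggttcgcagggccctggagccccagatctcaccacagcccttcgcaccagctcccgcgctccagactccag
Il6, chr5:30012864-30013163, plus strand: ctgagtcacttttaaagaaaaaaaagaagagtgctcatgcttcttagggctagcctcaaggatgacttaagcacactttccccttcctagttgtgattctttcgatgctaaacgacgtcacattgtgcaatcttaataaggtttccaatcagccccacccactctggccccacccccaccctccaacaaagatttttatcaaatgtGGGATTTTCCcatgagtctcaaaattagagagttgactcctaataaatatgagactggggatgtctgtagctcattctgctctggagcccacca
Nfkbia, chr12:55492598-55492897, minus strand: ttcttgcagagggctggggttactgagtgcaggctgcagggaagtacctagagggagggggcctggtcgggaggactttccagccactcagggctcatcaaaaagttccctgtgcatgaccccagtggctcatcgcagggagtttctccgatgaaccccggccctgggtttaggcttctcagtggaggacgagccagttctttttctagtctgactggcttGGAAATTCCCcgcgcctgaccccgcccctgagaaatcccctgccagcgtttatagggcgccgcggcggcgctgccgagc
The letters of the motif were the same in Cxcl1, Cxcl2 and Cxcl3, whose genes lie near each other on chromosome 5, and the first base of the motif lay 71, 97 and 73 bases before the start site. The AP-1 motif TGANTCA, on both strands, was found in 5 of the 17 (Il1a, Il1rn, Il6, Nfkbie and Tnfaip3) in 7 of the 20 interferon-stimulated genes that the table holds (35%) and in 2425 of all 27025 genes (8.97%). A match is a description of the letters only, and no match says only that they are not in this window.

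Areg, Inhba, Lif and Met were among the 10 higher genes named by the rule in macrophage/monocyte barcodes. Areg, a ligand of the epidermal growth factor receptor, stood at 13.2, 95.8, 59.9 and 50.1 CPM, with a log2 ratio of 2.85 (2.71 to 3.01). Inhba, the subunit of activin A, stood at 131, 658, 396 and 281 CPM, with 2.33 (2.28 to 2.38). Lif, leukaemia inhibitory factor, stood at 4.54, 25.3, 14.3 and 9.25 CPM, with 2.47 (2.21 to 2.75), and Met, the receptor of hepatocyte growth factor, at 29.0, 118, 58.8 and 43.2 CPM, with 2.02 (1.91 to 2.12). In each of these 4 genes the untreated library was the lowest, the STING agonist library the highest and the LTβR agonist and combination libraries lay between. With every deposited barcode in place of those kept, the log2 ratio of Areg was 1.39. The host transcript of the microRNA miR-155, Mir155hg, stood at 25.6, 128, 42.8 and 57.1 CPM, with 2.33 (2.22 to 2.44). The adhesion receptor Adgrl2 (2.22, 1.99 to 2.47), the non-coding RNA Eldr (2.44, 2.12 to 2.79) and Ankdd1a (3.20, 2.49 to 4.11) complete these 10 together with Il6 and Tnf, at levels of at most 26.0 CPM.

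**Figure D2:**
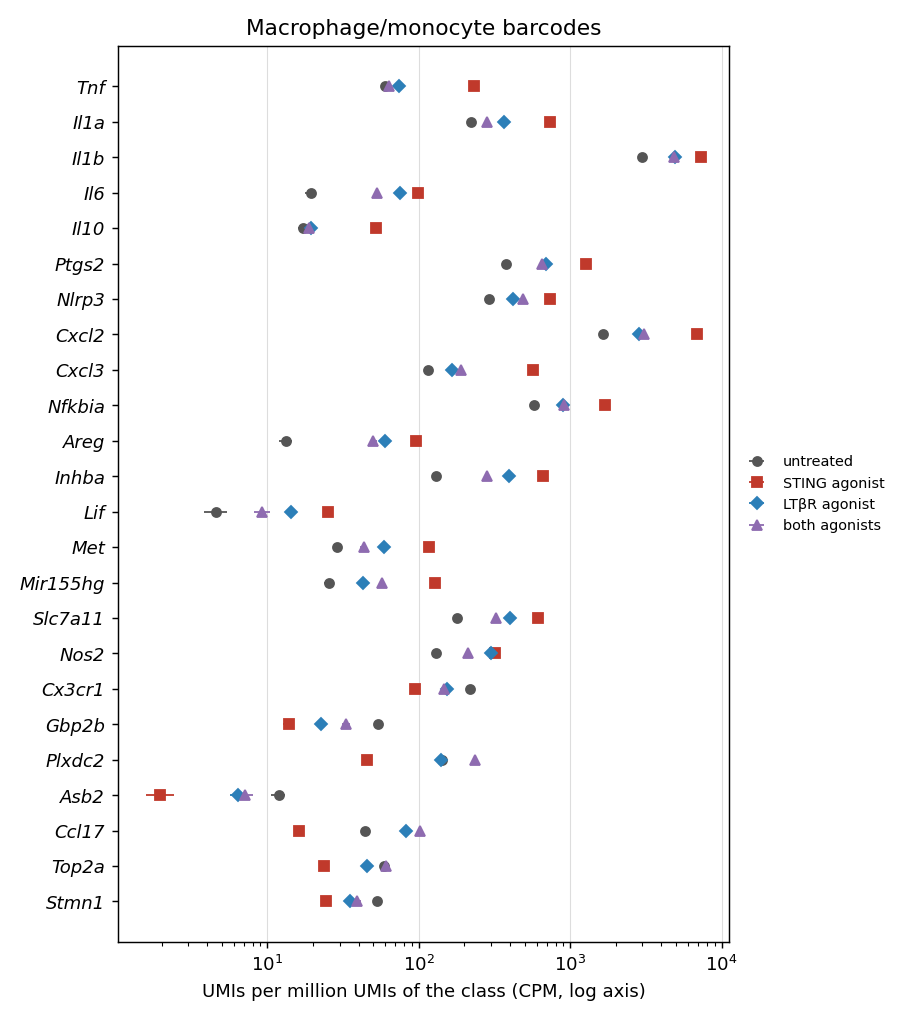
Level of 24 genes in macrophage/monocyte barcodes of the 4 libraries, in CPM on a log axis, with exact 95% counting intervals where they are wider than the symbol. Tnf stands at 231 CPM in the STING agonist library and between 60.2 and 74.5 CPM in the other 3, whereas Cx3cr1 is lowest there, at 94.5 CPM.

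These differences were present in barcodes with and without complement C1q, which marks many tissue macrophages. Barcodes with 2 or more of C1qa, C1qb and C1qc were 2476 (68.4% of the class) in the untreated and 3064 (57.4%) in the STING agonist library, and barcodes with none were 769 (21.2%) and 1683 (31.5%). The split was chosen after the values were seen. Tnf was 63.2 and 220.4 CPM with C1q and 47.4 and 249.98 CPM without, with log2 ratios of 1.80 (1.72 to 1.89) and 2.40 (2.20 to 2.60). Il1a was 224 and 572 CPM with C1q and 205 and 1037 CPM without, with 1.35 (1.31 to 1.4) and 2.34 (2.24 to 2.43). Inhba was 80.5 and 441 CPM and 238 and 1085 CPM, with 2.45 (2.38 to 2.52) and 2.19 (2.10 to 2.28). Of the NF-kB targets 14 of 23 were higher with C1q (median 1.22), where 1.82% of all genes were higher and their median was -0.16. Without C1q 14 of 22 were higher and 1 lower (median 1.25), where 2.75% of all genes were higher and 2.04% lower and their median was -0.19.

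Nos2 and Slc7a11 were also higher. Nos2, inducible nitric oxide synthase, stood at 129, 319.8, 298 and 211 CPM, with 1.30 (1.25 to 1.36), and its thinned share of barcodes was 16.5% (15.5 to 17.5%) against 7.37% (6.53 to 8.28%), with 1.54 and 0.556% of T barcodes as the background. Here the LTβR agonist library was nearly as high as the STING agonist library. Slc7a11, the cystine transporter, stood at 179, 614, 401 and 324 CPM, with 1.78 (1.73 to 1.82). Fth1, ferritin heavy chain, was at 8461 and 14299 CPM (log2 ratio 0.76, below 2-fold). Spp1, osteopontin, stood at 640.4, 1299.8, 787 and 666 CPM, with 1.02 (1.00 to 1.05), and Gpnmb at 15.3, 52.5, 35.3 and 25.2 CPM, with 1.77 (1.63 to 1.92). Both belong to the list of alternative activation, of which 2 of 20 genes were higher, 1 was lower and 17 were within 2-fold, against 2.5 and 2.2% of all genes higher and lower, with a median of -0.34 against -0.20. The scavenger receptor Mrc1 was 897 and 595 CPM (-0.59, -0.62 to -0.57), and its thinned share of barcodes 27% (25.8 to 28.3%) against 41.0% (39.4 to 42.6%), with 3.46 and 4.81% of T barcodes as the background. That of C1qa was 44.7% (43.3 to 46.0%) against 56.6% (55.0 to 58.2%), with 5.58 and 6.57% of T barcodes. Retnla, the lower gene, was at 121, 27.9, 160.3 and 132 CPM, and over 20% of its UMIs in 1 library came from 1 barcode. It was 157 and 26.1 CPM in barcodes with C1q and 1.09 and 10.6 CPM in those without. All 23 genes of hypoxia and glycolysis had a log2 ratio above 0, with a median of 0.34, and none was past 2-fold. Ldha, lactate dehydrogenase, was at 742 and 888 CPM and Vegfa at 395 and 602 CPM.

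Genes of proliferation were lower. Of 20 cell cycle genes 13 were lower, against 2.2% of all genes, none was above 0 and the median was -1.12. Top2a, the topoisomerase of dividing cells, stood at 59.1, 23.8, 45.8 and 60.5 CPM, with -1.31 (-1.42 to -1.20), and Stmn1 at 52.8, 24.4, 35.1 and 38.9 CPM, with -1.11 (-1.23 to -1.0). Mki67 was 73.2, 44.4, 55.3 and 71.7 CPM (-0.72, -0.81 to -0.63, within 2-fold), and its thinned share of barcodes was 3.20% (2.74 to 3.72%) against 5.03% (4.34 to 5.80%), with 1.21 and 0.855% of neutrophil barcodes, which do not divide, as the background. The combination library was not lower than the LTβR agonist library, with a median of 0.16. The named genes held 5 of the same kind: Pclaf (-1.47, -1.65 to -1.30), the histone genes H2ac8 (-1.62, -1.79 to -1.46) and H2ac4 (-1.63, -1.87 to -1.4), Sgo2a (-1.94, -2.38 to -1.52) and Cit (-1.73, -2.04 to -1.44). Among barcodes with C1q 3 of the 20 cell cycle genes were lower, with a median of -0.88, and among those without C1q only 3 had enough UMIs to compare, with a median of -0.09 and none lower. The others were at low counts there: Top2a was 29.1 and 4.83 CPM without C1q, with -2.58 (-3.08 to -2.12), and Stmn1 17.3 and 5.56 CPM, with -1.63 (-2.14 to -1.13), both under the minimum for a call. With C1q they were 67.8 and 33.1 CPM, with -1.03 (-1.15 to -0.92), and 62.9 and 34.0 CPM, with -0.89 (-1.01 to -0.77). In barcodes with C1q 1.25% of all genes were lower, and in those without 2.04%.

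Of the other lower genes Gbp2b, a guanylate-binding protein, stood at 53.6, 13.8, 22.5 and 33.1 CPM, with -1.96 (-2.09 to -1.82), and Asb2 at 11.9, 1.96, 6.41 and 7.07 CPM, with -2.59 (-2.95 to -2.25). Plxdc2 stood at 142, 45.4, 139 and 233 CPM, with -1.65 (-1.72 to -1.57), so that the STING agonist library alone was low. Qpct, glutaminyl cyclase, was 20.7, 6.98, 17.7 and 28.7 CPM. Cx3cr1, the fractalkine receptor, stood at 219, 94.5, 152 and 147 CPM, with -1.21 (-1.27 to -1.15). Ccl17, a ligand of CCR4, stood at 44.3, 16.2, 81.7 and 102 CPM, with -1.45 (-1.59 to -1.32), again lowest in the STING agonist library. Ccl17 and its partner Ccl22 (-1.11, -1.30 to -0.93, but 1.16 with barcodes thinned to 1000 UMIs) are also made by dendritic cells. The 8 dendritic cell markers summed to 90.1 CPM in this class without treatment and 37.4 CPM after the STING agonist, and 5 of the 7 compared were lower, against 2.2% of all genes, with Xcr1 not compared and none of the 8 at 0. Their part in these results was not tested.

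Interferon-stimulated genes were not higher in macrophage/monocyte barcodes of the STING agonist library on the day of resection. The paper reports IRF3 phosphorylation and interferon-β protein in KPC tumours within hours of the injection, a time not sampled here. Of 30 genes none was higher, 2 were lower (Ifit3, -1.01, -1.12 to -0.90, and Ifit3b, -1.0, -1.32 to -0.70, the latter at 0.11 with barcodes thinned), against 2.2% of all genes, 2 had a log2 ratio above 0 and the median was -0.29 against -0.20 over all genes. Isg15, a ubiquitin-like modifier, stood at 400.2, 457, 449 and 416 CPM, and Rsad2, viperin, at 144, 132, 188 and 128 CPM. The chemokines Cxcl9 and Cxcl10, which draw T cells, were 723, 567, 526 and 592 CPM and 303, 347, 352 and 267 CPM. Of 9 genes of the STING pathway compared none was called. Sting1 stood at 90.9, 74.0, 82.5 and 82.5 CPM, its kinase Tbk1 at 86.7, 114, 95.1 and 93 CPM and Cgas at 23.3, 14.7, 20.3 and 17.5 CPM. Ifnb1, interferon-β, was too rare to compare, at 0.513, 1.49, 1.10 and 1.21 CPM. The interferon-stimulated response element, searched on both strands as a pair of GAAA parted by any 2 bases, lay in the promoters of 12 of the 20 interferon-stimulated genes in the RefSeq table and in 1079 of all 27025 genes (3.99%). The promoter of Isg15 is shown as an example of a gene with the element that was within 2-fold (0.19), with 3 overlapping copies in capitals.
Isg15, chr4:156200769-156201068, minus strand: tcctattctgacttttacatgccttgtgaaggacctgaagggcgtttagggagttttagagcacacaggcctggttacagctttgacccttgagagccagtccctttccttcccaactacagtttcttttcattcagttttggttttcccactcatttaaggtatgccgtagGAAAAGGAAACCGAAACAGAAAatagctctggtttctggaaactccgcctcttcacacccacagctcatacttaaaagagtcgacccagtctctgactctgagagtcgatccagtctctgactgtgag
None of the 17 NF-kB targets in the table held this element. Of genes for class II antigen presentation 0 of 12 were called (median -0.26), and H2-Ab1 was detected in 67.7% (66.4 to 69.0%) against 76.4% (74.9 to 77.8%) of thinned barcodes, with 11.3 and 10.6% of T barcodes as the background. No gene of class I presentation (0 of 19, median -0.11) or of lysosome and lipid handling (0 of 18, median 0.09) was called.

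**Figure D3:**
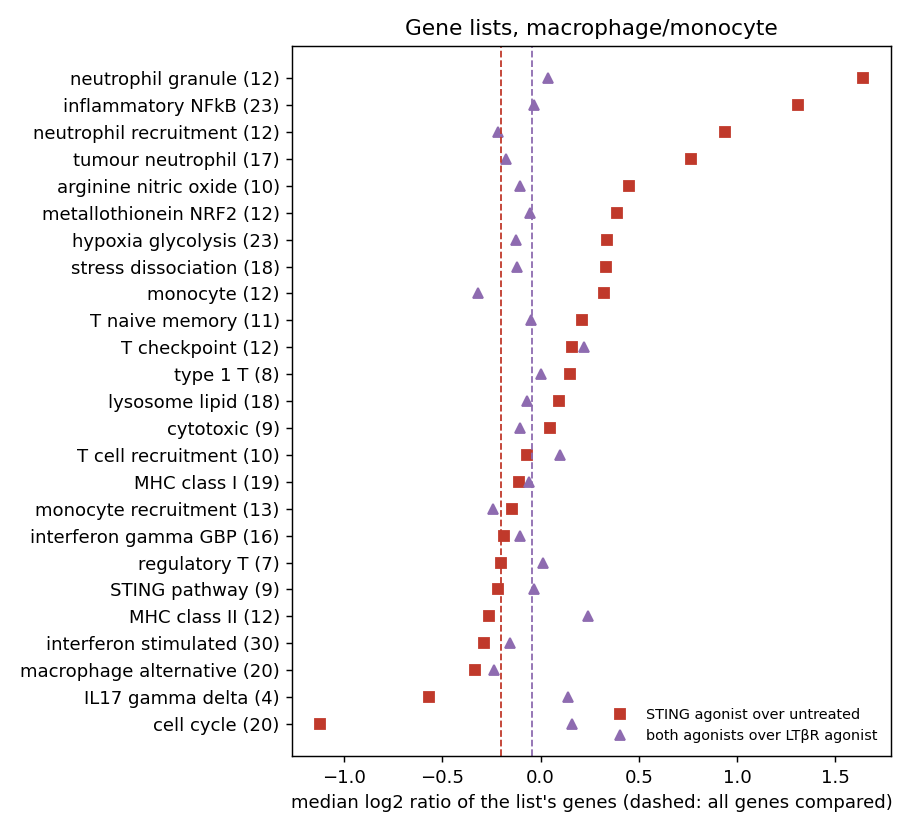
Median log2 ratio of each gene list in macrophage/monocyte barcodes, with the number of its genes compared, for the STING agonist over untreated (squares) and both agonists over the LTβR agonist (triangles); dashed lines are the medians over all genes, -0.20 and -0.04. The list of NF-kB targets lies at 1.31 and -0.03, and the list of the cell cycle at -1.12 and 0.16.

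Which library stood apart differed among the called genes of this class. Of the 264 higher genes 71 (26.9%) were at least 2-fold above each of the other 3 libraries in the STING agonist library, and 63 (23.9%) were at least 2-fold below each of the other 3 in the untreated library. In 228 (86.4%) the untreated library was the lowest and the STING agonist library the highest. The genes were chosen because these libraries differed at least 2-fold, which favours such an order, and no share over all genes was counted. The same holds for the order of libraries in single called genes described here. Of the 232 lower genes the STING agonist library was apart in 61 (26.3%) and the untreated library in 6 (2.59%). Of the 264 higher genes 228 were compared in the combination over the LTβR agonist, and 101 of these were above 0 there, 2 higher and 1 lower, with a median of -0.05, beside 37.8% of all genes above 0. Of the 232 lower genes 219 were compared, 62 were below 0, 4 were higher and 6 lower, with a median of 0.16, beside 62.2% of all genes below 0.

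Higher genes in neutrophil barcodes of the STING agonist library included Cxcl3, Retnlg, Hspa1a and Hilpda. Only 404 barcodes and 882471 UMIs stood for the class in the untreated library, against 4397 barcodes and 11261196 UMIs. Cxcl3 stood at 1811, 4589.8, 2235 and 2700.0 CPM, with a log2 ratio of 1.34 (1.27 to 1.41). Cxcl2, the most abundant of these ligands, was 26746, 43962, 26256 and 28984 CPM (0.72, 0.70 to 0.74, within 2-fold). Of 20 NF-kB targets compared 1 was higher (Il23a, 99.7, 208, 57.5 and 153 CPM, 1.05, 0.75 to 1.38) and 1 lower (Il6, with over 20% of its UMIs in 1 barcode, and a log2 ratio of -2.89 that became 1.73 in the stricter class described below), against 2.72 and 6.16% of all genes, and the median was 0.22 against -0.26 over all genes. Il1b was 21342, 22938, 19824 and 21539 CPM, a level near to equal in the 4 libraries. Ccl3, a chemokine, was detected in 64.8% (63.2 to 66.2%) of thinned barcodes against 49.3% (43.9 to 54.6%), and Cd274, which encodes PD-L1, in 56.3% (54.7 to 57.8%) against 43.0% (37.8 to 48.4%). In T barcodes the same shares were 12.5 and 14.9% for Ccl3 and 19.6 and 12.5% for Cd274.

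Retnlg, a neutrophil-specific resistin-like protein, stood at 663, 1889, 2702 and 1658 CPM, with 1.51 (1.39 to 1.63), and the untreated library was the one apart. The cystatin gene Cstdc4 stood at 229, 568, 640.1 and 447 CPM, with 1.31 (1.11 to 1.52), in the same order. Hspa1a, the inducible heat-shock protein 70, stood at 83.9, 293, 253 and 240.5 CPM, with 1.80 (1.48 to 2.16), and Trp53inp1 at 24.9, 114, 193 and 136 CPM, with 2.16 (1.59 to 2.88). In these 4 genes the STING agonist library was near the LTβR agonist and combination libraries. Hilpda, a HIF target that binds lipid droplets, stood at 316, 902, 375 and 304 CPM, with 1.51 (1.34 to 1.69), and here the STING agonist library was apart. Fam162a, another HIF target, stood at 53.3, 157, 96.4 and 86.8 CPM, with 1.54 (1.14 to 2.01). Garin1a (28.3, 109, 34.5 and 28.9 CPM), Flcn, the folliculin gene (21.5, 83.4, 47.6 and 41.9 CPM), and Schip1 (11.3, 46.6, 22.5 and 26.0 CPM) were also highest after the STING agonist alone. Of 22 genes of hypoxia and glycolysis 18 were above 0 with a median of 0.34, and 1 was higher, against 2.72% of all genes: Pfkl, phosphofructokinase, at 56.7, 129, 81.6 and 78.6 CPM and 1.17 (0.78 to 1.62). Ldha was 429 and 820.3 CPM, Slc2a1, a glucose transporter, 360.4 and 637 CPM, and P4ha1 144 and 278 CPM, each within 2-fold. Fth1 stood at 14818, 29568, 14702 and 16420.0 CPM, with 1.00 (0.97 to 1.02).

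Ikzf1, Itgb7 and Ltb were among the lower genes named in the neutrophil class. Ikzf1, a lymphoid transcription factor, stood at 207, 65.4, 157 and 134 CPM, with -1.67 (-1.90 to -1.42), Itgb7, an integrin of lymphocytes and mast cells, at 68.0, 17.0, 27.4 and 28.9 CPM, with -2.00 (-2.42 to -1.55), and Ltb, lymphotoxin-β, at 169, 54.3, 99.1 and 90.4 CPM, with -1.64 (-1.90 to -1.37). Hgf, hepatocyte growth factor, was 101, 22.2, 25.7 and 37.2 CPM, Slc24a3 162, 28.9, 46.5 and 30.7 CPM and Kcnq5 135, 19.7, 85.4 and 70.9 CPM. Chn2 (-2.21), Atp2a3 (-2.10), Vopp1 (-1.92) and Hycc1 (-1.82) complete the 10. When 3 of the 4 neutrophil genes had to be detected instead of 2, the log2 ratio of Kcnq5 was 0.49, that of Slc24a3 1.31 and that of Hgf -0.07, while Ikzf1, Itgb7 and Ltb were at -1.20, -1.82 and -1.79, and 152 genes were lower in place of 283. Summed levels of the 9 T cell markers were 173 and 78.2 CPM in the untreated and STING agonist libraries with none at 0, those of the 8 B and plasma cell markers 214 and 44.9 CPM with 3 and 4 at 0, and those of the 12 class II presentation genes 3346 and 1539 CPM with none at 0. Of the 9 T cell and the 8 B and plasma cell markers 1 each had enough UMIs to compare, and it carried much of its sum. Skap1 was 101 and 31.3 CPM and its log2 ratio of -1.70 became 0.05 in the stricter class, and Jchain was 152 and 31.1 CPM and its log2 ratio of -2.29 became 0.73 with mixed and top-depth barcodes removed. The part of these markers in the lower genes was not tested. Class I presentation genes were below 0 in 17 of 17, with a median of -0.62 against -0.26 over all genes, and 2 were lower, against 6.16% of all genes, of which Psmb9, an immunoproteasome subunit, stood at 192, 88.8, 105 and 102 CPM. Of 26 interferon-stimulated genes none was higher and 1 was lower, with a median of -0.26, equal to that of all genes.

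**Figure D4:**
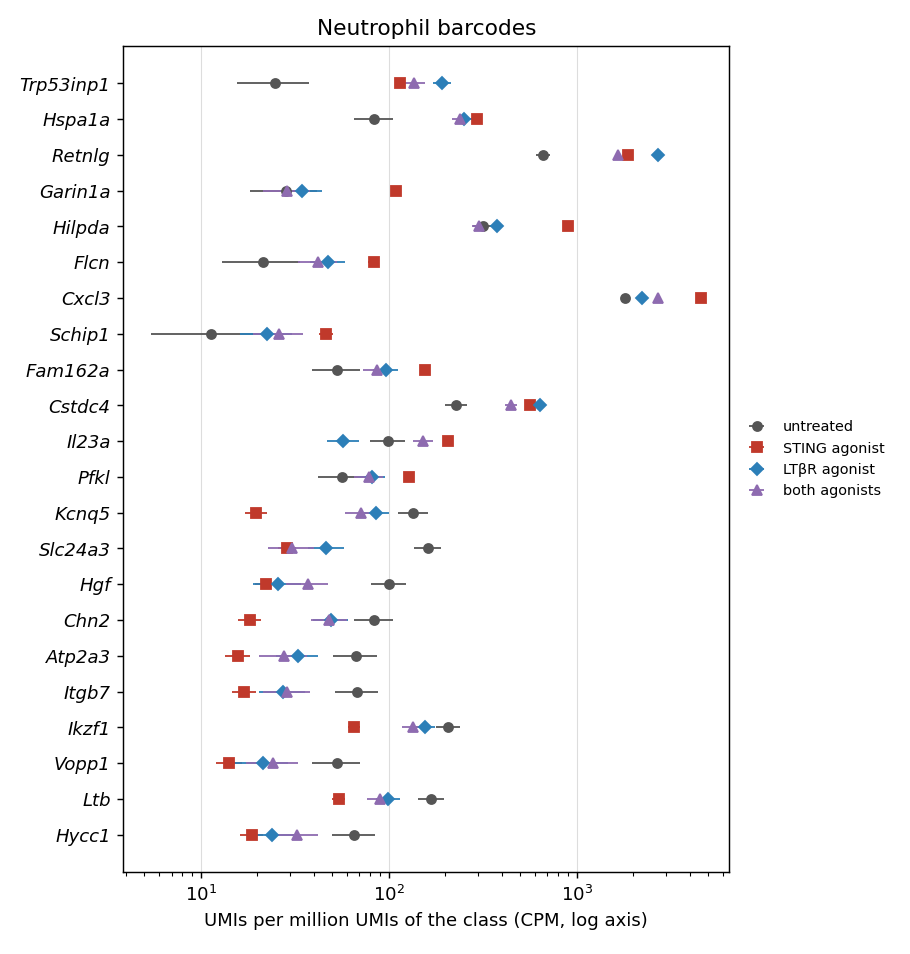
Level of 22 genes in neutrophil barcodes of the 4 libraries, in CPM on a log axis, with exact 95% counting intervals. Hilpda stands at 902 CPM in the STING agonist library and between 304 and 375 CPM in the other 3.

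Of 14 granule genes compared in the neutrophil class 3 were higher, against 2.72% of all genes, and 1 lower, against 6.16%. Their median was 0.24 against -0.26 over all genes, and Camp, Lcn2 and Ltf, among these, had over 20% of their UMIs in 1 barcode of a library. S100a8 and S100a9, the most abundant of them, were 14809.6, 19825, 23119 and 15931 CPM and 21412, 31088, 33686 and 24673 CPM. Thinned shares of Mmp8 were 4.14% (3.54 to 4.81%) against 5.13% (3.07 to 7.98%), with 0.769 and 0.0926% of T barcodes as the background. Those of Cxcr2 were 42.2% (40.7 to 43.8%) against 50.4% (45.1 to 55.8%), with 2.69 and 0.185% of T barcodes. Cxcr2 is a gene of the class rule, so its share within the class is partly set by that rule.

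T barcodes of the STING agonist library had more RNA of Klf2 and less of Tox, the transcription factor of exhausted T cells. Klf2, the factor that keeps T cells in circulation, stood at 84.4, 226, 211 and 183 CPM, with a log2 ratio of 1.42 (1.25 to 1.59). The untreated library was the one apart. Of 14 naive and memory genes compared 13 were above 0, 2 were higher (Klf2 and Ccr7, the latter with over 20% of its UMIs in 1 barcode), against 1.23% of all genes, none was lower and the median was 0.71 against -0.07 over all genes. Tcf7, the factor of memory and stem-like T cells, stood at 172, 262, 323 and 275 CPM (0.60, 0.47 to 0.74), Satb1 at 316, 608, 634 and 590.1 CPM (0.94, 0.85 to 1.04) and Lef1 at 129, 219, 267 and 294 CPM (0.77, 0.61 to 0.92), each within 2-fold. The thinned share of barcodes with Tcf7 was 23.3% (19.7 to 27.1%) against 16.0% (13.9 to 18.3%), with 0.353 and 0.285% of neutrophil barcodes as the background.

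Tox stood at 1046, 446, 592 and 753 CPM, with -1.23 (-1.32 to -1.14), lowest after the STING agonist and highest without treatment. Of 17 checkpoint genes compared Tox was the only one lower, against 0.877% of all genes, none was higher and the median was -0.34. Ctla4 stood at 1037, 670.5, 528 and 575 CPM (-0.63, -0.70 to -0.56) and Pdcd1, which encodes PD-1, at 403, 300.1, 196 and 302 CPM (-0.42, -0.54 to -0.31). The thinned shares of Pdcd1 were 20.8% (17.4 to 24.5%) against 24.2% (21.6 to 26.8%), with overlapping intervals and 0.278 and 0.285% of neutrophil barcodes as the background. Further lower genes were Chn2 (195, 82.0, 121 and 126 CPM), Filip1 (102, 34.6, 50.8 and 54.9 CPM), Arnt2 (79.8, 30.8, 39.5 and 41.3 CPM), the protease Tmprss6 (59.1, 13.1, 21.6 and 29.1 CPM) and Itih5 (42.6, 13.1, 16.2 and 21.6 CPM). In these 5 genes the untreated library was the highest and the STING agonist library the lowest. Klrh1, a receptor of the killer lectin family, was 211, 95.1, 71.4 and 106 CPM, Tmem273 36.8, 12.1, 16.5 and 26.8 CPM, the calcium pump Atp2b2 47.7, 15.9, 18 and 44.9 CPM and Ube2c, a gene of mitosis, 38.8, 13.8, 41.6 and 32.0 CPM.

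Higher genes besides Klf2 were Emb (526, 1191, 863 and 754 CPM, 1.18, 1.11 to 1.25), the chemokine receptor Cxcr4 (119, 290.1, 205 and 148 CPM, 1.29, 1.14 to 1.43), Dhx40 (95, 233, 136 and 114 CPM, 1.29, 1.13 to 1.46) and Slc15a2, a peptide transporter (35.8, 97.2, 43.7 and 43.9 CPM, 1.44, 1.18 to 1.71). Ramp3 was 39.3, 107, 56.8 and 48.7 CPM and Pde2a, a phosphodiesterase, 41.2, 102, 115 and 93.3 CPM. Serpinb1a (1.42, but -0.40 with barcodes thinned) and Mirt1 (1.35) complete the group together with Il17a. Il17a, the cytokine of type 17 T cells, was 45.8, 119, 45.8 and 67.8 CPM, with 1.38 (1.15 to 1.62), and 18.8% of its UMIs in the STING agonist library lay in 1 barcode.

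Split by co-receptor RNA, a split chosen after the values were seen, the Tox and Klf2 ratios were furthest from 0 in barcodes with Cd8a or Cd8b1 and no Cd4, of which the untreated library held 517 and the STING agonist library 213. There Tox was 1399 and 465 CPM, with -1.59 (-1.71 to -1.47), against -0.42 (-0.64 to -0.20) in the 220 and 106 barcodes with Cd4 only and -0.39 (-0.57 to -0.22) in the 324 and 200 with neither. Klf2 was 49.7 and 208 CPM in barcodes with Cd8a or Cd8b1, with 2.06 (1.78 to 2.35), against 1.18 (0.80 to 1.57) with Cd4 and 0.76 (0.49 to 1.04) with neither. Tcf7 was 75.9 and 207 CPM, with 1.44 (1.19 to 1.70), against 0.42 (0.06 to 0.77) and -0.20 (-0.39 to -0.00). Emb was 264 and 912 CPM, with 1.79 (1.66 to 1.92). Gzmb, granzyme B, had the opposite order, with 0.41 (0.31 to 0.51) in barcodes with Cd8a or Cd8b1, 1.11 (0.87 to 1.34) with Cd4 and 1.24 (1.03 to 1.46) with neither. Il17a was 31.2 and 282 CPM with Cd4 (32 and 148 UMIs) and 178 and 192 CPM with neither. The single barcode that held the largest part of its UMIs was not traced to a subset. The share of T barcodes in the first subset was 47.3 and 40.7%, and differences between subsets were not tested. The thinned share of T barcodes with Cd8a was 20.8% (17.4 to 24.5%) against 30.0% (27.3 to 32.8%), with 0.151 and 0.285% of neutrophil barcodes as the background.

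**Figure D5:**
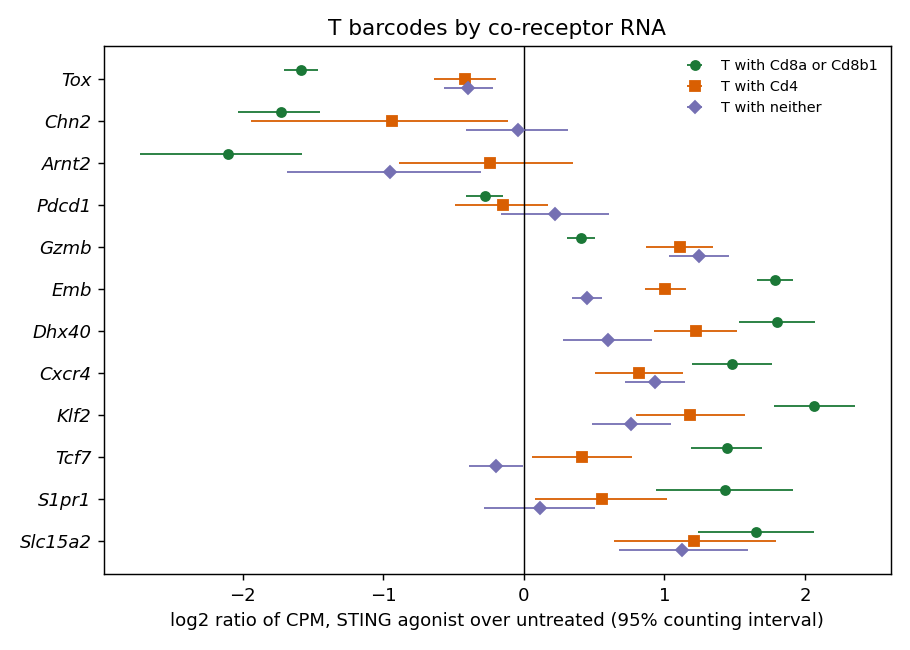
Log2 ratio of the STING agonist over the untreated library for 12 genes in T barcodes with Cd8a or Cd8b1, with Cd4, or with neither, with exact 95% counting intervals. Tox lies at -1.59 in barcodes with Cd8a or Cd8b1 and at -0.42 and -0.39 in the others.

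Of 18 cytotoxic genes compared in T barcodes 13 were above 0 and 3 were higher (Gzma, Gzmc and Gzmf), against 1.23% of all genes, each with over 20% of its UMIs in 1 barcode of a library, and the median was 0.20 against -0.07 over all genes. Perforin, Prf1, was 540.0, 361, 425 and 481 CPM (-0.58, -0.68 to -0.48). None of the 12 genes of the type 1 programme (9 above 0, median 0.18), of the 13 regulatory genes (median -0.05) or of the 24 interferon-stimulated genes compared (median -0.19) was called. Ifng, interferon-γ, stood at 211, 240.3, 153 and 203 CPM and Foxp3 at 86.1, 73.7, 37.4 and 22.3 CPM.

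NF-kB targets were also higher in T barcodes, 8 of 18 against 1.23% of all genes, with a median of 0.94 against -0.07, and all 8 had less than 0.5 times the level of the other barcodes of the library. Of the 80 higher genes of the class 52 had less than 0.5 times the level of the other barcodes of the library, and 21 were left by the rule for named genes. Cxcl2 stood at 257 and 1795 CPM in T barcodes, and neutrophil RNA in the amount of S100a9 would have brought 931 CPM of it (51.9%). For Acod1 this part was 75.2% and for Il1b 33.7%, whereas it was 5.55% for Klf2, 2.29% for Cxcr4 and 0.420% for Emb. In T barcodes without a UMI of S100a8 or S100a9, 1074 of 1093 untreated and 404 of 523 after the STING agonist, 41 genes were higher in place of 80, and 3 of the 8 NF-kB targets were past 2-fold, with a median of 0.73. With mixed and top-depth barcodes removed 7 of the 8 were past 2-fold (median 1.37), with all 3 of Cd3d, Cd3e and Cd3g required 8 of 8 (median 1.64) and with barcodes thinned 6 of the 7 that had a value (median 2.15). In these settings, in the same order, 0.663, 0.744, 1.55 and 1.00% of all genes were higher. The medians are of the 8 genes already called, not of the 18 compared. Klf2, Emb and Tox were at 1.34, 1.17 and -1.18 in the barcodes without S100a8 or S100a9.

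Over all cells together, neutrophil genes were higher and T cell and dendritic cell markers lower. Of 12253 genes 545 were higher (4.45%) and 973 lower (7.94%), or 914 and 364 after centring. The neutrophil genes S100a9 (549, 6143, 1167 and 1105 CPM), Retnlg (20.3, 387, 93.9 and 76.2 CPM) and Lcn2 (9.25, 138, 29.4 and 24.5 CPM) were among the higher genes, and 7 of 8 neutrophil markers were higher. All 9 T cell markers and 7 of 8 dendritic cell markers were lower. Of the NF-kB targets 18 of 23 were higher with a median of 1.46. Csf3, summed over all cells, was 0.748, 13.6, 3.40 and 2.15 CPM. Cstdc4, Wfdc21, Ankrd22, Camp and Ereg had log2 ratios of 3.70, 3.73, 3.98, 6.55 and 5.17, the last 2 from 5 and 4 UMIs in the untreated library. The mast cell protease gene Mcpt2 (4.54) had 86.7% of its UMIs in 1 barcode. Galnt18 stood at 15.9, 0.283, 4.75 and 4.18 CPM, with -5.78 (-6.51 to -5.19), and Klrh1 at 29.0, 4.02, 7.94 and 8.51 CPM. Arnt2, Lrrc9, Tff1, Insrr, Eln, Dscaml1 and Rgs5 had log2 ratios of -2.96 to -4.86, all at no more than 15.8 CPM without treatment. Il5 was lower too, with 96.9% of its untreated UMIs in 1 barcode. Of 9 genes of the STING pathway and 30 interferon-stimulated genes none was called in all cells.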

How the data were processed

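Live CD45+ cells were sorted from pooled tumours and measured by droplet single-cell RNA-seq, 1 library in each of 4 groups, so groups have no replicates. The deposited files are sparse matrices of raw UMI counts per gene and barcode, which per the file headers the authors made with Cell Ranger 8.0.1. The submitters' processing notes give Cell Ranger 7.1.0 and mm10, and the annotation is not given in the sources used here. The files pair 33696 gene identifiers with symbols.

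Barcodes with 300 to 5000 genes and at most 6% mitochondrial UMIs were kept. No doublet caller was run, and as an alternative barcodes with markers of more than 1 class or of the highest depth were removed, 670 in the untreated and 2198 in the STING agonist library. A barcode that met more than 1 class rule was counted in each. Counts were summed per class and library, and scaled to CPM. Log2 ratios had 0.5 UMI added to each sum, with exact binomial 95% intervals, CPM had exact Poisson intervals, shares Clopper-Pearson intervals and share ratios log-normal intervals. Intervals cover counting error only. No test between groups was possible. Shares of barcodes with a UMI were taken after thinning each barcode to 1000 UMIs, leaving out shallower ones.

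For all cells and each class the rule named the 10 genes in each direction past 2-fold whose interval bound nearest 0 was farthest from it. It left out antigen receptor, mitochondrial, ribosomal protein, haemoglobin, sex-linked and predicted genes. Within a class it also left out the genes of the class rule, genes with less than 0.5 times the level of the other barcodes and genes with over 20% of their UMIs in 1 barcode. Members of the gene lists were named beside these. The genes, lists and classes were chosen with earlier results of these data known. The calculation was tested on simulated counts with Python 3.11.15, numpy 2.4.6, scipy 1.17.1 and pandas 2.3.3. Alternatives changed the barcode filter, class rules, thinning, scaling, gene minimum and denominators.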

Additional observations from a re-analysis of the deposited data

Results flagged for a closer look

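Among the genes named by the rule or held by a gene list, 6 were found for which the STING agonist over no treatment and both agonists over the LTβR agonist went past 2-fold in opposite directions. Over all genes compared, those higher in the first contrast and lower in the second numbered 10 in all cells, 4 in T, 1 in neutrophil and 1 in macrophage/monocyte barcodes, and those lower and then higher 18, 6, 0 and 4. With 1 library per group the difference between the contrasts was not tested, and no explanation was weighed. Over all cells, Ngp, a neutrophil granule gene, had log2 ratios of 2.82 and -1.76, with up to 81.4% of its UMIs in a library in 1 barcode. In T barcodes, Jchain, a gene of plasma cells, had -6.24 and 1.4, with up to 87.6% in 1 barcode. Atp2b2 had -1.57 and 1.32 in T barcodes, with at most 13% in 1 barcode. Klrb1c, a receptor known from natural killer cells, had 1.01 and -1.59, with at most 5.81% in 1 barcode. Gzmc, granzyme C, had 1.51 and -1.73 in T barcodes, with up to 63.9% in 1 barcode. In neutrophil barcodes Camp, the cathelicidin gene, had 3.49 and -1.01, with up to 100% of a library's UMIs in 1 barcode.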

How the results depend on the processing

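No paired analysis was possible because each group was 1 library. With neutrophils out of the denominator the T share ratio was 0.336 and the macrophage/monocyte share ratio turned to 1.09. With barcodes thinned to 1000 UMIs these share ratios were 0.232 and 0.887, and the counts of genes higher and lower were 6 and 3 in T, 62 and 63 in neutrophil and 105 and 32 in macrophage/monocyte barcodes, with fewer UMIs to compare. With mixed and top-depth barcodes removed the macrophage/monocyte share ratio was 0.750 and 40 genes were higher in T barcodes. In stricter classes 152 genes were lower in neutrophil barcodes. Without barcodes that had an S100a8 or S100a9 UMI, an alternative chosen after seeing the data, 41 genes were higher in T barcodes. Centred on the median gene, 914 genes were higher and 364 lower in all cells, 225 and 93 in neutrophil barcodes, and 128 lower in macrophage/monocyte barcodes. With no minimum count, 1172 were higher and 2279 lower in all cells, 431 and 399 in T, 205 and 1596 in neutrophil and 787 and 909 in macrophage/monocyte barcodes. With each cell weighted the same, 2179 were lower in all cells. Except where fewer UMIs or genes entered by construction, the cause was not tested.

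Of 1941 log2 ratios of 332 genes under the alternatives other than the minimum count, which leaves a ratio as it is, 1000 moved by no more than their counting interval, 926 moved further and 15 turned direction. With every deposited barcode Slc7a2 was 0.19 in T barcodes. With thinning, Cxcl10 was 0.33 and Serpinb1a -0.40 in T, Vcan -0.41 in neutrophil, and Ccl22 1.16, Clec9a 0.20 and Ifit3b 0.11 in macrophage/monocyte barcodes. With mixed barcodes removed, Cxcl10 was 0.22, Hmox1 -0.85 and Nos2 -0.85 in T and Jchain 0.73 in neutrophil barcodes. In the stricter neutrophil class Il6 was 1.73, Kcnq5 0.49, Skap1 0.046 and Slc24a3 1.31. The 882471 UMIs of the untreated neutrophil class and the 2891889 of the STING agonist T class limited which genes could be compared there.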
